A study of Mus musculus with 8 samples.

Results

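AML-12 is an established line of mouse hepatocytes, the cell type that makes most plasma proteins, bile acids, urea and lipoproteins of the body. The genes described here are those that its control cells expressed at 1 CPM (count per 1000000 counts) or more in at least 3 of the 4 control libraries. They number 10911 of the 21983 gene symbols in the count table (49.6%). The control cells carry pLKO.1, a lentiviral vector backbone, and the labels give their genotype as WT, their cell type as hepatocyte and their medium as DMEM with 10% fetal bovine serum. The line was derived from a mouse with a human transforming growth factor alpha transgene under a metallothionein promoter, which all cells of the line share. The series holds 8 RNA-seq libraries, and the 4 that overexpress the transcript named in its title were not used. One question its title raises for the baseline is how much of the lipoprotein machinery, APOC3 included, these cells transcribe.

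Hepatocytes keep their identity through a network of transcription factors, among them HNF4A, the FOXA proteins and the C/EBP proteins, which bind together at the promoters of liver genes. In culture, hepatocytes commonly lose transcripts of urea synthesis, gluconeogenesis and drug metabolism, and may gain transcripts of bile duct cells and of the cytoskeleton. A list of expressed genes from a hepatocyte line therefore has to be read against both adult liver genes and genes of neighbouring cell types.

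The control libraries held between 12256376 and 18965662 counts, and between 10956 and 11105 genes reached 1 CPM in each. Library 3 stood apart from the others, and this touches most levels given here. It was the highest of the 4 libraries for 4734 detected genes (43.4%) and the lowest for 4527 (41.5%), and 254 genes were more than 2-fold higher there than the mean of the other 3, against 1 to 6 genes in each other library. More than 2-fold lower were 38 genes in library 3, against 31, 6 and 73 in libraries 1, 2 and 4. The labels do not say whether the 4 libraries came from separate cultures, so an SD may reflect technical variation alone. Levels of the same gene are given in CPM by library. Levels of different genes are compared only as TPM, a length-corrected share of the transcripts, here counts divided by the summed length of a gene's exons and scaled to a sum of 1000000 in each library, as mean ± SD over the 4 libraries (n = 4). The length chosen matters for some genes. With the longest transcript as length, 9 of the 172 detected genes named here moved more than 1.5-fold, among them Cp from 370 to 599 TPM, Pkm from 2985 to 4745 and Asl from 49.0 to 75.8. Whether reads were counted by strand is not known here, and Ctnnb1, Csf1r, Cdk4, Cebpb, Pklr and Ccnd1 share 14.6% to 23.4% of their exon length with another gene of the table, so part of their counts is uncertain.

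The 20 highest genes by TPM included mitochondrially encoded genes of respiration, genes of translation and a ferritin gene, and none of them was on the plasma protein list, of which Ttr stood highest at rank 30. The 10 highest genes held 13.1% of all TPM and 6.80% of all counts, and the 1000 highest held 65.6% and 51.6%. The mitochondrial genes mt-Co1, mt-Nd1 and mt-Cytb, which encode respiratory chain subunits, led with 28578 ± 4149, 20032 ± 1264 and 15738 ± 1608 TPM. The elongation factor gene Eef1a1 followed with 14818 ± 2393 TPM. S100a6, which encodes a calcium-binding protein of proliferating and mesenchymal cells, had 11194 ± 1388 TPM, and the ribosomal gene Rplp1 had 10921 ± 1766 TPM. Ranks 7 to 20 also held Ftl1 (ferritin light chain, 8287 ± 1521 TPM), Eef2, Cox8a, the galectin gene Lgals1 (5037 ± 986 TPM), the water channel gene Aqp1 (4663 ± 471 TPM) and Igfbp7, a secreted binding protein of insulin-like growth factors (4277 ± 708 TPM). In this order mt-Cytb and Eef1a1 differed by less than either SD, as did S100a6 and Rplp1, whereas mt-Co1, mt-Nd1 and mt-Cytb lay further apart than their SDs, and so did Eef1a1 and S100a6. In the middle of the range, detected genes had a median of 25.2 TPM. Of those with an annotated length, 108 had 1000 TPM or more, 1657 had 100 to 1000, 6351 had 10 to 100, 2587 had 1 to 10 and 205 had less than 1.

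At the other end, 6575 symbols had no count in any of the 4 libraries and 4497 had counts below the rule. A gene with 0 counts lay below a limit of 0.0489 CPM, which is 3 counts of the 61350705 counts in all 4 libraries and covers counting error only. Large families that other tissues use were almost without counts. Of 1144 olfactory receptor symbols, 3 were detected and 1067 had no count. Neither the 328 vomeronasal receptor symbols nor the 57 keratin-associated protein symbols had a detected member. The 21 major urinary proteins, abundant products of the adult mouse liver, had none either, and 20 of them had no count. By contrast, 80 of 84 ribosomal protein symbols and 34 of 39 proteasome symbols were detected. Among nuclear chromosomes other than Y, the detected share ran from 34.9% on X and 39.6% on chromosome 14 to 58.1% on chromosome 8. None of the 183 symbols on Y was detected. In the list of 7 Y genes that most male tissues express, 6 had no count and Uty, named after its value was seen, had 1.

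The 5 marker genes were all detected, at very unequal levels. Spp1 and Ldha are not particular to hepatocytes, so their detection does not bear on the hepatocyte label. Ttr, which encodes the thyroid hormone carrier transthyretin, had 1381, 1165, 1065 and 1411 CPM in libraries 1 to 4. Alb, the gene of serum albumin, had 20.7, 17.7, 27.6 and 19.6 CPM. Per length this was 3185 ± 264 TPM for Ttr (rank 30 of the detected genes) and 27.9 ± 7.35 TPM for Alb (rank 5128), close to the median of all detected genes. The highest Alb value was in library 3 and the highest Ttr value in library 4, while the Ttr value of library 3 was the lowest. Hnf4a, the gene of the nuclear receptor that maintains hepatocyte identity, had 289, 359, 356 and 331 CPM and 210 ± 30.3 TPM. Spp1, which encodes osteopontin and marks bile duct and injured liver cells, had 1043, 1010, 975 and 589 CPM. Library 4 was the low one, and Spp1 had 1666 ± 420 TPM. Ldha, the lactate dehydrogenase subunit of glycolytic cells, had 3621, 3438, 2527 and 3730 CPM and 3021 ± 344 TPM, with library 3 lowest.

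**Figure D1:**
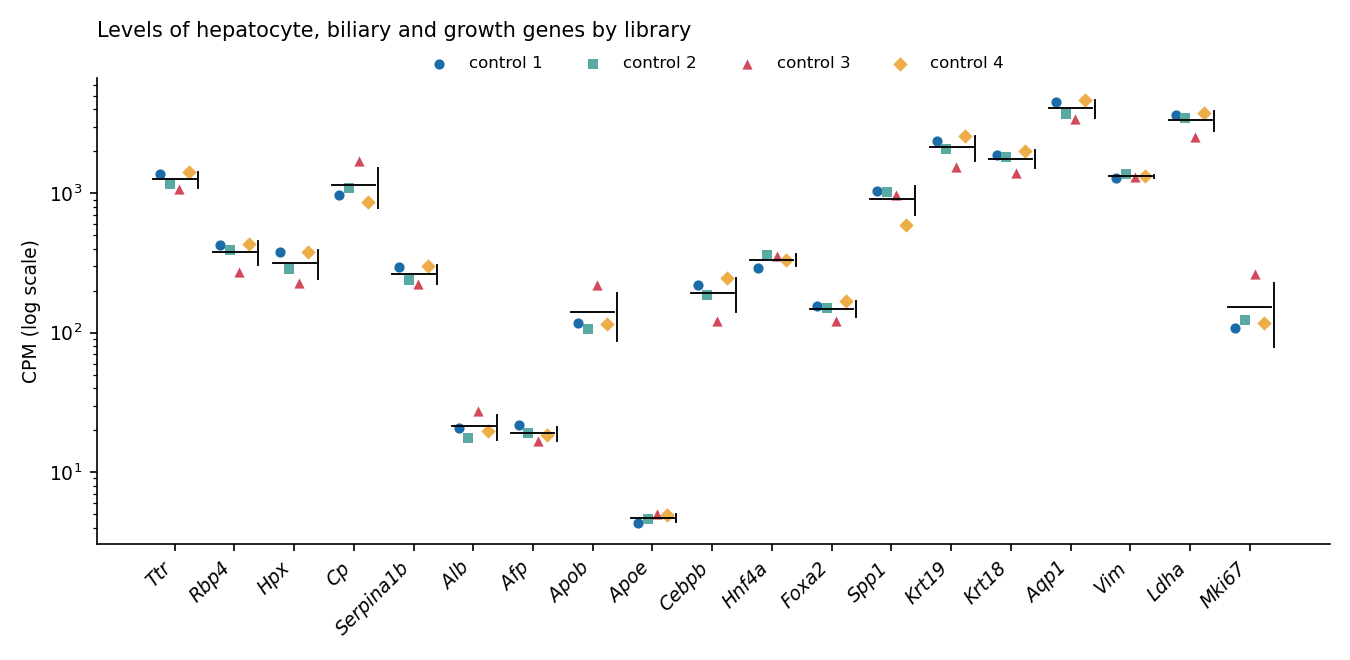
CPM (log axis) of 19 genes in each of the 4 control libraries, with 1 point per library, a horizontal line at the mean and a vertical bar of 1 SD on each side (n = 4). Ttr lies at 1065 to 1411 CPM and Alb at 17.7 to 27.6 CPM, and library 3 is the highest point for Cp, Apob and Mki67 and the lowest for Ldha, Krt18 and Krt19.

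The genes of the transcription factor network were largely present. Of 25 hepatocyte transcription factor genes, 19 (76.0%, against 49.6% of all symbols) were detected, 4 had counts below the rule and 2 had none, and the detected genes had a median of 20.8 TPM, against 25.2 TPM over all detected genes. Cebpb, the C/EBP gene that responds to acute phase signals, was highest with 219, 186, 122 and 245 CPM (384 ± 88.0 TPM). Its relative Cebpa, which is linked to mature hepatocytes, had 10.5, 12.1, 6.81 and 12.1 CPM (11.8 ± 2.42 TPM). Per length, Cebpb was thus far above Cebpa. The pioneer factor gene Foxa2 reached 188 ± 15.0 TPM and Foxa3 14.5 ± 3.23 TPM, while Foxa1 had 42 counts in all and was below the rule.

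Among the nuclear receptors, Nr1h3 (the oxysterol receptor LXR alpha) had 76.5 ± 6.82 TPM, Rxra, the shared partner of many of them, 44.5 ± 2.61 TPM and Nr1h4 (the bile acid receptor FXR) 29.5 ± 8.82 TPM. Nr1i3, the xenobiotic receptor CAR, had no count, nor did the developmental factor gene Tbx3. Gata4, a factor of the early liver and endoderm, had 25.5 ± 1.72 TPM. Those named after their values were seen were Foxa1, Foxa3, Cebpa, Nr1h4 and Gata4.

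Plasma protein genes split into a few abundant ones and many with few counts or none. Of 46 genes, 16 (34.8%, against 49.6% of all symbols) were detected, 19 had counts below the rule and 11 had none. The detected ones had a median of 54.9 TPM, but the whole list had 0.209 TPM, against 0.986 TPM over all symbols. After Ttr came Rbp4, the retinol carrier that circulates bound to transthyretin, with 423, 388, 271 and 434 CPM (846 ± 125 TPM). Hpx, the haem scavenger hemopexin, had 375, 288, 227 and 376 CPM (633 ± 113 TPM). Cp, the copper protein ceruloplasmin, had 972, 1083, 1694 and 858 CPM (370 ± 146 TPM). Library 3 was the lowest for Rbp4 and Hpx and the highest for Cp. Serpina1b, a gene of the protease inhibitor alpha-1-antitrypsin, had 328 ± 33.8 TPM, and the complement gene C3 had 265 ± 20.3 TPM. Serpina1b has near-identical copies in the mouse, between which the counting may have split reads, so its level is uncertain.

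Genes of clotting were at the low end of the list. F7, F9, F10, F12 and Fgg had no count in any library, and Fgb, another fibrinogen chain, had 27 counts in all. Saa1, an acute phase protein, also had no count. Trf, the iron carrier transferrin, is a major liver product, but it had 0.816, 1.37, 1.70 and 1.12 CPM here, and 63.5% of its exon length overlaps another listed gene, so that even these counts are uncertain. Trf and Fgb were named after their values were seen. The summed level of the list was 4121, 3862, 4167 and 4104 CPM in libraries 1 to 4, of which Ttr and Cp together made up the larger share in each.

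Alb, Afp and Afm lie side by side on chromosome 5, their relative Gc lies elsewhere on that chromosome, and all were detected. Gc, the vitamin D binding protein, had 50.3, 52.0, 59.7 and 33.4 CPM (80.8 ± 22.2 TPM). Afp, alpha-fetoprotein, the albumin of the fetal liver, had 21.8, 18.9, 16.7 and 18.4 CPM (17.0 ± 1.22 TPM). Afm, afamin, had 11.6, 11.2, 15.1 and 8.13 CPM (11.6 ± 3.54 TPM). Per length the order of the means was Gc, Alb, Afp and Afm, and the SD ranges of neighbours in this order did not overlap. Gc and Afm were named after their values were seen.

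Promoters of Alb, Afp and Gc, and of Serpina1b from another family on chromosome 12, are shown because they share a short motif and yet belong to genes of very different level. The sequences come from RefSeq on GRCm38.p6 and give the 250 bases before the annotated start, read 5′ to 3′ on the strand of the gene. Capitals mark GTTAAT or its complement ATTAAC, a motif known from liver promoters. They were taken from chr5:90460620-90460869 (plus strand) for Alb, chr5:90490464-90490713 (plus strand) for Afp, chr5:89457899-89458148 (minus strand) for Gc and chr12:103738190-103738439 (minus strand) for Serpina1b.
Alb: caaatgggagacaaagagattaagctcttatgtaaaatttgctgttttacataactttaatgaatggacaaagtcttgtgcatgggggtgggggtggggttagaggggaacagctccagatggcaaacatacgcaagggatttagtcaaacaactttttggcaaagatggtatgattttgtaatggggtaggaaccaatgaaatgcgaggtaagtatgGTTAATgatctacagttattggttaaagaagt
Afp: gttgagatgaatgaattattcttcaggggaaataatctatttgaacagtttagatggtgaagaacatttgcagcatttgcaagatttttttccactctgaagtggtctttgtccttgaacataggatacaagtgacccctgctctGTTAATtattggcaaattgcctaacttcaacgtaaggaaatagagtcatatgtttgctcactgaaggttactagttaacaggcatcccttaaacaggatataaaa
Gc: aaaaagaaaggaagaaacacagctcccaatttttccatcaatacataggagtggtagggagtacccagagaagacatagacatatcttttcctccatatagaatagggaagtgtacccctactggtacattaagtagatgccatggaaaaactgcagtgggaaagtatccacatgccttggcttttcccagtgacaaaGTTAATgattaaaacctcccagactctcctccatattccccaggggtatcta
Serpina1b: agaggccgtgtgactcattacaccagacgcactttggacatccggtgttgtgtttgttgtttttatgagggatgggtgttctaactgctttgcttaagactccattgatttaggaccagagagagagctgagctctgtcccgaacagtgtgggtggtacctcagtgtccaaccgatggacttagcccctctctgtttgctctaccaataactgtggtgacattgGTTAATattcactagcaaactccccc
Each holds 1 match, which begins 32 bases before the start in Alb, 105 in Afp, 52 in Gc and 26 in Serpina1b. GENCODE M21 places the start 27 bases downstream of the RefSeq start in Alb, 23 in Afp and 31 in Serpina1b, and at the same base in Gc. Of 36 RefSeq promoters that matched the plasma protein list, counted over the full 300 bases from 250 before the start to 50 after it, 13 (36.1%) held GTTAAT or ATTAAC. The share was 6.16% over all 20125 promoters of 16501 genes of the table, and 4.42% over the 11097 promoters of detected genes. It was 42.9% (6 of 14) for the detected plasma protein genes, so the motif occurred in promoters of detected and of other members alike. Such a match describes the letters in a window and not a bound site.

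Among genes of lipoprotein assembly and clearance, most apolipoprotein genes fell below the rule. Of 24 genes, 10 (41.7%, near the 49.6% of all symbols) were detected, 13 had counts below the rule and 1, Apoa4, had none. Apob, the backbone of the triglyceride-rich particles that liver secretes, had 118, 106, 218 and 116 CPM (30.8 ± 13.9 TPM). Library 3 was the highest by a wide margin, and the mean without it was 113 CPM against 139 CPM with it. The lipoprotein receptor genes Lrp1 and Vldlr had 45.6 ± 2.97 and 35.3 ± 12.2 TPM, and the lipase inhibitor gene Angptl4 27.5 ± 5.03 TPM.

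Apoc3, the gene of the protein named in the title of the series, had 0.163, 0.369, 0.0631 and 0.210 CPM, or 13 counts in all, and did not meet the rule. Apoa1 and Apoa2, the main proteins of high density lipoprotein, had 43 counts and 1 count. Apoe had 4.32, 4.59, 5.04 and 4.91 CPM (6.69 ± 0.805 TPM). It rested on 53, 87, 80 and 70 counts, too few to read the small spread as steadiness. Mttp, the transfer protein that loads lipid onto APOB, had 4.00, 5.48, 7.50 and 3.57 CPM (2.55 ± 1.05 TPM). Apoc3, Apoa1, Apoa2, Apoe and Mttp were named after their values were seen.

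Most genes of the urea cycle had few counts or none. Cps1, the entry enzyme, had 2 counts in all, Otc and Arg1 had none, and Ass1 had 2. Asl, the lyase of the cycle, was the exception with 86.9, 77.6, 58.1 and 92.7 CPM (49.0 ± 6.92 TPM). Nags, whose product activates CPS1, had no count. In gluconeogenesis, G6pc, which releases free glucose, had no count, Pck1 had 1 and Fbp1 had 7, whereas the pyruvate carboxylase gene Pcx had 71.8 ± 7.77 TPM.

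Among other amino acid enzymes, Glul (glutamine synthetase, an enzyme of hepatocytes around the central vein) was highest with 416, 467, 431 and 500 CPM (413 ± 34.7 TPM), and its 4 libraries lay close together. Fah, the last enzyme of tyrosine breakdown, had 58.8 ± 3.16 TPM, and Cth, which makes cysteine, 49.2 ± 13.6 TPM. In all, 9 of 26 genes of this list (34.6%, against 49.6% of all symbols) were detected and 4 had no count. Cps1, Ass1, Pck1 and Fbp1 were named after their values were seen.

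The highest genes of the drug and bile acid list encode detoxifying enzymes outside the cytochrome P450 family. Of 33 genes, 11 (33.3%, against 49.6% of all symbols) were detected, 15 had counts below the rule and 7 had none. Ephx1, the microsomal epoxide hydrolase, had 943 ± 81.1 TPM, and the glutathione transferase genes Gstm1 and Gsta4 had 922 ± 88.2 and 392 ± 28.5 TPM. Aldh2, which clears acetaldehyde, had 427, 402, 304 and 495 CPM (238 ± 35.2 TPM). Por, the electron donor of all microsomal P450 enzymes, had 121 ± 15.6 TPM. The list holds only part of the P450 family. Its detected P450 genes were Cyp2d10, Cyp27a1 and Cyp1a1, and its other P450 genes were not detected. Cyp2d10 had 18.0, 11.6, 13.6 and 19.3 CPM (28.5 ± 5.67 TPM), and Cyp1a1 had 1.72 ± 0.324 TPM. Cyp2d10 has close relatives in the mouse, so its level is uncertain. Cyp3a11, Cyp2b10, Cyp7a1 (the first step of bile acid synthesis) and Cyp7b1 had no count, and Cyp1a2 and Cyp2e1 had 1 count each. Cyp27a1, the sterol hydroxylase of the alternative bile acid pathway, had 12.8, 11.9, 10.5 and 14.9 CPM (17.4 ± 1.80 TPM). The bile acid importer gene Slc10a1 had 10 counts and the export pump gene Abcb11 had 3. Abcc2, an exporter of conjugated compounds into bile, had 152, 159, 251 and 160 CPM (64.7 ± 21.5 TPM), with library 3 apart from the other 3. Cyp1a1, Cyp1a2, Cyp2d10, Cyp2e1, Cyp27a1, Slc10a1, Abcb11 and Abcc2 were named after their values were seen.

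Where an enzyme has a liver form and a form of most other tissues, the other form usually prevailed. The share of the liver form was computed per library from TPM for 9 enzymes and carriers. Acetyl-CoA carboxylase was among them, although it has no liver form of this kind, and for it the share of Acacb is given. For glycogen synthase it was 0.0898% (Gys2), for glycogen phosphorylase 0.0258% (Pygl), and for the cytosolic fatty acid-binding proteins 0% (Fabp1 had no count, against Fabp5 with 64.2 ± 5.88 TPM). The glucose transporter Slc2a2 made up 2.45% ± 0.974 (SD, n = 4) beside Slc2a1. For acetyl-CoA carboxylase, Acacb made up 1.65% ± 0.559 (SD, n = 4) beside Acaca, which is no measure of a liver form. The liver forms with shares under 1% had at most 3 counts in all.

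Liver pyruvate kinase, Pklr, made up 5.68% ± 0.284 (SD, n = 4) and was well expressed, at 179 ± 19.7 TPM, beside a far larger amount of Pkm. For phosphofructokinase the share of Pfkl was 40.9% ± 2.64 (SD, n = 4). Carnitine palmitoyltransferase 1, the gate of fatty acid entry into mitochondria, was the liver form Cpt1a almost throughout, at 99.9% ± 0.104 (SD, n = 4). With the longest transcript as length, the shares were 51.0% for Pfkl, 3.16% for Pklr and 1.02% for Acacb. For methionine adenosyltransferase no share can be read, because Mat2a, a gene of nearly all growing cells, had no count in any library. The cause was not tested, and the level of Mat2a is uncertain.

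**Figure D2:**
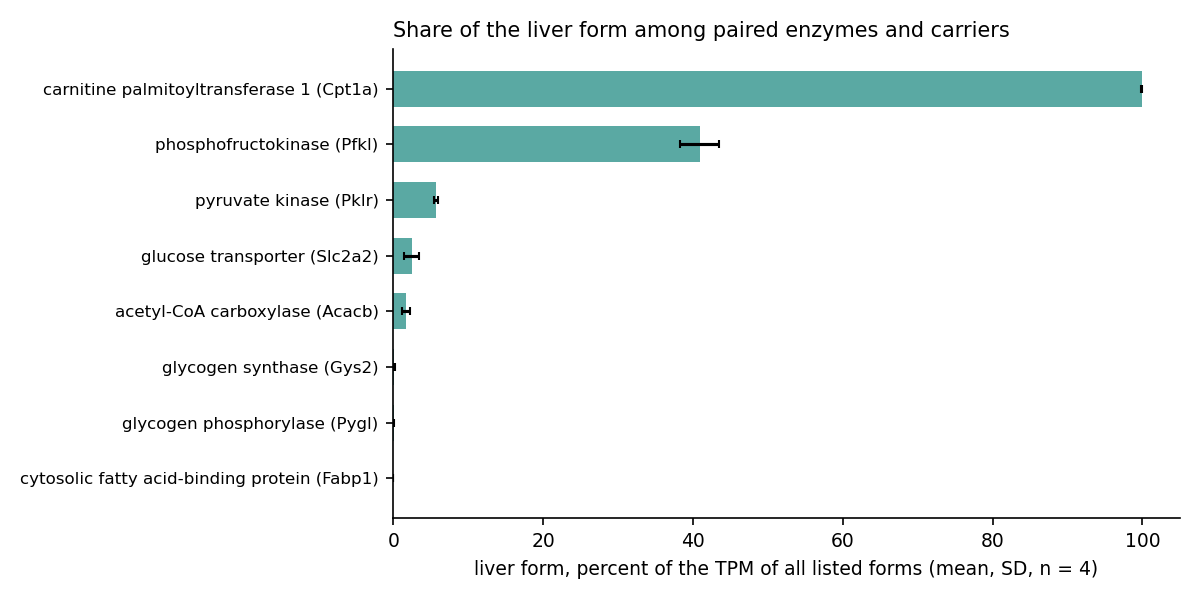
Share of the liver form in the summed TPM of all listed forms of 8 enzymes and carriers, with Acacb shown for acetyl-CoA carboxylase. Bars start from 0, with error bars of 1 SD over the 4 control libraries. Cpt1a stands at 99.9%, Pfkl at 40.9%, Pklr at 5.68% and the others at 2.45% or less.

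Fetal liver genes were present in part. Of 11 genes, 7 were detected (63.6%, against 49.6% of all symbols), and Dlk1 and the fetal growth factor gene Igf2 had no count. Cd24a, a surface marker of progenitor cells, had 679, 661, 739 and 497 CPM (759 ± 156 TPM). The imprinted gene Peg3 had 204, 206, 333 and 221 CPM (55.4 ± 18.1 TPM), with library 3 apart from the other 3. The RNA-binding protein genes Igf2bp1 and Igf2bp2, which are active before birth, had 21.7 ± 1.87 and 21.5 ± 2.51 TPM.

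Bile duct and epithelial transcripts were among the highest in these cells. Of 18 biliary and progenitor markers, 12 (66.7%, against 49.6% of all symbols) were detected, with a median of 101 TPM. The summed level of the list was 9047, 7905, 6958 and 9068 CPM. Aqp1, the water channel of bile ducts and many other epithelia and vessels, had 4528, 3696, 3412 and 4655 CPM. Krt19, a keratin of bile ducts, had 2358, 2080, 1533 and 2574 CPM (3452 ± 558 TPM). The second duct keratin, Krt7, was much lower with 336, 312, 220 and 373 CPM (132 ± 21.4 TPM). Sox9, a factor of ducts and progenitors, had 81.2, 85.0, 86.0 and 96.2 CPM (63.7 ± 5.54 TPM), and the Notch target Hes1 134 ± 4.59 TPM. Other duct markers were near zero. Epcam had 1 count, and Prom1 and Cftr had 7 each, so the list was not expressed as a whole. Epcam, Prom1, Cftr and Sox9 were named after their values were seen.

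The keratin pair of hepatocytes was as high as Krt19. Krt18 had 1873, 1806, 1399 and 1996 CPM (3700 ± 353 TPM) and Krt8 2222, 2041, 1457 and 2510 CPM (3150 ± 530 TPM), and the SD ranges of Krt18, Krt19 and Krt8 in TPM overlapped. Library 3 was lowest for all 3. Of the cell junction genes, 12 of 20 (60.0%, against 49.6% of all symbols) were detected. Ctnnb1, which links cadherins to actin and carries Wnt signals, had 990 ± 293 TPM, Cldn2, a claudin of leaky tight junctions, 430 ± 151 TPM and Cdh1, E-cadherin, 236 ± 49.7 TPM. Cldn1, Cldn3, the gap junction gene Gjb2 and Dpp4, an enzyme of the canalicular membrane, had no count.

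Matrix and cytoskeletal genes were divided by kind. Vim, the intermediate filament gene of mesenchymal and cultured cells, had 1289, 1367, 1314 and 1332 CPM (846 ± 56.5 TPM), and library 3 did not stand apart there. Timp2 and Sparc, a protease inhibitor and a matrix protein, had 490 ± 24.7 and 299 ± 23.4 TPM. The genes for the matrix signalling proteins CCN2 and CCN1, listed under the older symbols Ctgf and Cyr61, had 248 ± 14.6 and 228 ± 11.4 TPM. The fibrillar collagen genes Col1a2 and Col3a1 had no count, Col1a1 had 47 and the smooth muscle actin gene Acta2 had 2. In all, 18 of 30 genes of the list (60.0%, against 49.6% of all symbols) were detected and 3 had none. Col1a1 and Acta2 were named after their values were seen.

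Markers of the other cell types of the liver were not detected or lay below the 25.2 TPM median of detected genes, with 1 exception. These are whole cultures, in which fewer cells of a type and less RNA per cell cannot be told apart. Of 12 stellate cell and fibroblast markers 1 was detected (8.33%, against 49.6% of all symbols), Des with 3.03 ± 0.322 TPM. Lrat, Hand2, Ngfr and Lum had no count. The summed level of these 12 was 3.78 to 4.75 CPM. Of 12 endothelial markers 2 were detected (16.7%, against 49.6% of all symbols), Eng with 2.11 ± 0.707 TPM and Flt1 with 0.999 ± 0.455 TPM. The sum over all 12 was 6.61 to 10.1 CPM. Pecam1 had 9 counts, Kdr had 1 and Lyve1 had none. Pecam1, Kdr and Ptprc were picked with their values in view. Among 7 erythroid markers 1 was detected (14.3%, against 49.6% of all symbols). This was Klf1 with 2.72 ± 0.374 TPM, and the sum over all 7 was 1.48 to 2.12 CPM.

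The exception was Cd14, the co-receptor for bacterial lipopolysaccharide, with 1081, 1056, 807 and 1151 CPM (1777 ± 171 TPM). It made up nearly all of the summed level of the 16 Kupffer and immune markers, which was 838 to 1181 CPM. Of these 16 markers 4 were detected, Cd14, Csf1r and the macrophage genes Lyz2 (6.52 ± 0.845 TPM) and Cd68 (3.59 ± 0.443 TPM). Adgre1, Clec4f, Vsig4, Timd4, C1qa and Cd3e had no count, and Ptprc, the pan-leukocyte gene CD45, had 0.734, 0.685, 0.946 and 0.140 CPM. Csf1r, the receptor of macrophage growth factor, had 27.6, 24.3, 25.7 and 26.0 CPM (13.6 ± 0.846 TPM), in 4 libraries that hardly differed. The chemokine genes Cxcl5 and Ccl2, which attract neutrophils and monocytes, were added after their values were seen. Cxcl5 had 2023, 2034, 2539 and 1251 CPM (3217 ± 1036 TPM) and Ccl2 1200, 1099, 1114 and 814 CPM (2815 ± 505 TPM). Both were lowest in library 4.

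**Figure D3:**
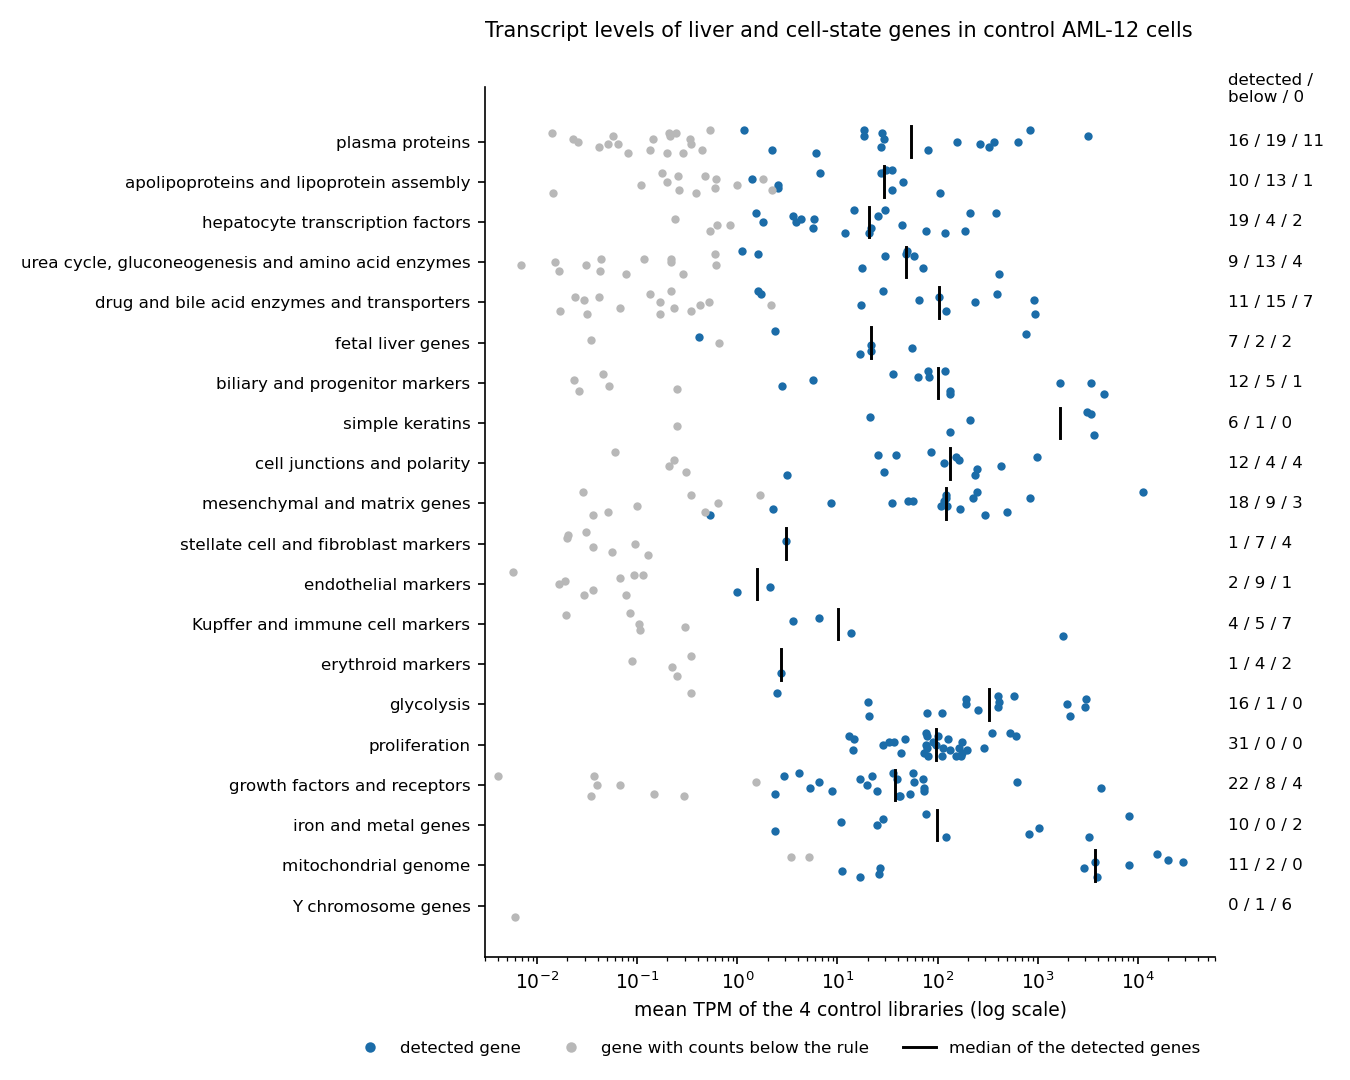
Mean TPM over the 4 control libraries (log axis) of each gene of 20 lists, with detected genes in blue, genes with counts below the rule in grey and the median of the detected genes as a black line. Genes at 0 counts cannot be drawn and are counted in the last of the 3 numbers at the right; glycolysis and proliferation lists lie almost wholly in the detected range, while plasma proteins and drug enzymes reach from far below the rule up to Ttr at 3185 TPM and Ephx1 at 943 TPM.

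Genes of glycolysis, and of cell division and its control, were detected nearly in full. Of 17 glycolysis genes 16 were detected, with a median of 329 TPM, and all 31 proliferation genes were detected, with a median of 97.0 TPM. Both medians lie above the 25.2 TPM of all detected genes, and both detected shares (94.1% and 100%) above the 49.6% of all symbols. The proliferation list includes inhibitors of division, Cdkn1a and Cdkn2a among them, so its count, median and sum are not those of drivers alone. After Ldha, the glycolytic genes Pkm, Aldoa and Tpi1 had 2985 ± 345, 2086 ± 278 and 1968 ± 311 TPM. Gapdh, named after its value was seen, had 20.1 ± 2.04 TPM, far below its neighbours in the pathway, and is uncertain because the mouse genome holds many near-identical copies of it. The summed glycolysis level was 17269, 16225, 12212 and 17863 CPM in libraries 1 to 4. Its low value in library 3 goes with a median GC content of 53.1% in this list, against 49.6% over all detected genes, and the part of GC content in it was not tested.

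The cell cycle genes Cdk4 and Ccnd1, which drive the exit from rest, had 613 ± 89.0 and 525 ± 45.4 TPM. The inhibitor genes Cdkn2a and Cdkn1a were also expressed, Cdkn2a with 166, 124, 87.5 and 174 CPM (352 ± 85.8 TPM) and Cdkn1a with 376, 335, 274 and 400 CPM (293 ± 31.6 TPM). Trp53, which induces Cdkn1a, had 162 ± 13.1 TPM, and its ubiquitin ligase gene Mdm2 100, 111, 198 and 91.3 CPM. Markers of dividing cells did not move together across the libraries. The summed level of the proliferation list was 5415 to 5576 CPM. Of its 31 genes, 13 were higher in library 3 than the mean of the others, against 5586 of all 10911 detected genes. Mki67 had 108, 123, 263 and 117 CPM and Top2a 182, 236, 466 and 176 CPM, so library 3 was far above the other 3 for both. Without it the mean of Mki67 was 116 CPM in place of 152, and that of Top2a 198 CPM in place of 265. Pcna, the DNA replication clamp, did not share this, with 176, 167, 167 and 122 CPM, and the replication helicase gene Mcm5 was lowest in library 3, with 250, 235, 180 and 266 CPM. The mitotic genes Plk1, with 116, 114, 90.4 and 128 CPM, Birc5 and Aurkb were also lowest there. Trp53, Mdm2, Mki67, Top2a, Plk1, Birc5 and Aurkb were named after their values were seen.

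Growth factor receptors of hepatocytes were expressed at moderate levels. Of 34 genes of growth factors, receptors and binding proteins, 22 (64.7%, against 49.6% of all symbols) were detected and 4 had no count. Met, the receptor of hepatocyte growth factor, had 152, 156, 277 and 154 CPM (74.0 ± 29.9 TPM), while its ligand gene Hgf had no count. Egfr, the receptor of TGF alpha, had 188, 195, 269 and 201 CPM (57.5 ± 13.9 TPM), and the mouse Tgfa gene had 84.9, 91.6, 98.8 and 86.5 CPM (42.3 ± 5.61 TPM). Whether reads of the human transgene contributed to Tgfa was not tested. Fgfr3, Erbb2 and Tgfbr2 had 73.7 ± 5.93, 72.3 ± 5.17 and 58.6 ± 6.90 TPM. The glucagon receptor gene Gcgr and Igfbp2 had no count, Igf1, the main liver growth factor of the circulation, had 8 counts, and Asgr1, the asialoglycoprotein receptor of hepatocytes, had 1. Egfr, Tgfa, Igf1 and Asgr1 were named after their values were seen.

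Transcripts of iron storage were abundant, and those of the iron hormone were not detected. Fth1 and Ftl1, the ferritin chains, had 3231 ± 391 and 8287 ± 1521 TPM. Part of the ferritin light chain reads may lie on its copy Ftl1-ps1, named after its value was seen, which had 2668 ± 617 TPM, so both levels are uncertain. Hamp and Hamp2, the hepcidin genes, had no count. Tfrc, the transferrin receptor, had 212, 257, 337 and 168 CPM (121 ± 43.5 TPM), with library 3 highest and library 4 lowest. The metallothionein genes Mt1 and Mt2, which bind zinc and copper, had 1027 ± 90.6 and 830 ± 61.0 TPM.

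Within the mitochondrial genome, which is transcribed as long precursors and then cut into single mRNAs, levels were grossly uneven. Of 13 genes 11 were detected (84.6%, against 49.6% of all symbols), and the genome took 3.00% to 3.68% of all counts. Against 895896 counts for mt-Co1 over the 4 libraries, its neighbours mt-Co2, mt-Co3 and mt-Atp6 had 371, 413 and 232. mt-Nd3 had 79, mt-Nd4l 32 and mt-Atp8 14. The mouse nuclear genome holds a long and nearly exact copy of this stretch of mitochondrial DNA, and reads that match 2 places are often left out of counts, so these 6 levels are uncertain. Also uncertain are the ribosomal pseudogene symbols Gm10073, Gm10260 and Gm11808, which stood among the 20 highest with 6252 ± 1869, 4936 ± 1245 and 5048 ± 663 TPM. Gstp1, Gstp2 and Gstp3, 3 near-identical genes that all had no count, are uncertain too. How reads that match several places were counted is not known here, and the cause of these high and low levels was not tested. The 6 low mitochondrial genes, Gstp2 and Gstp3 were named after their values were seen.

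Start sites of detected genes differed in base composition from those of the other genes. The ratio of observed to expected CpG over 300 bases at the start was 0.762 in the median of 11097 promoters of detected genes, 0.275 over 9028 promoters of genes that were not detected and 0.222 over 5156 promoters of genes with no count. TATAAA, searched on the strand of the gene only, occurred in 4.09% of promoters of detected genes and in 12.7% of the others. Within the detected genes its share was 3.49% at 10 to 100 TPM and 11% (9 of 82) at 1000 TPM or more. The plasma protein promoters had a median CpG ratio of 0.224 over the whole list and of 0.186 over its detected genes, below the 0.275 of genes that were not detected. The promoter of Ldha is shown as an example of the other kind, from chr7:46845554-46845803 (plus strand, GRCm38.p6), 250 bases before the RefSeq start.
Ldha: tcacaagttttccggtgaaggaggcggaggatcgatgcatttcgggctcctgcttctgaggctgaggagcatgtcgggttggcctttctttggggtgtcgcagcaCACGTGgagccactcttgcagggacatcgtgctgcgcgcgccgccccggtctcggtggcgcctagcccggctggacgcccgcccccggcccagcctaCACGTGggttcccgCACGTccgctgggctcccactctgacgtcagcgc
Capitals mark ACGTG or CACGT, the core of the element that hypoxia-inducible factors bind, on either strand. The window holds 5 matches, of which 2 pairs overlap as CACGTG. Over its 250 bases it has 25 CG pairs at a CpG ratio of 0.886, against 2 CG pairs in the Alb window. Ldha has 2 RefSeq promoters, of which only the first is shown. GENCODE M21 places its start 35 bases downstream. ACGTG or CACGT occurred in 21.1% of all promoters of the table's genes and in 25.6% of those of detected genes.

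**Figure D4:**
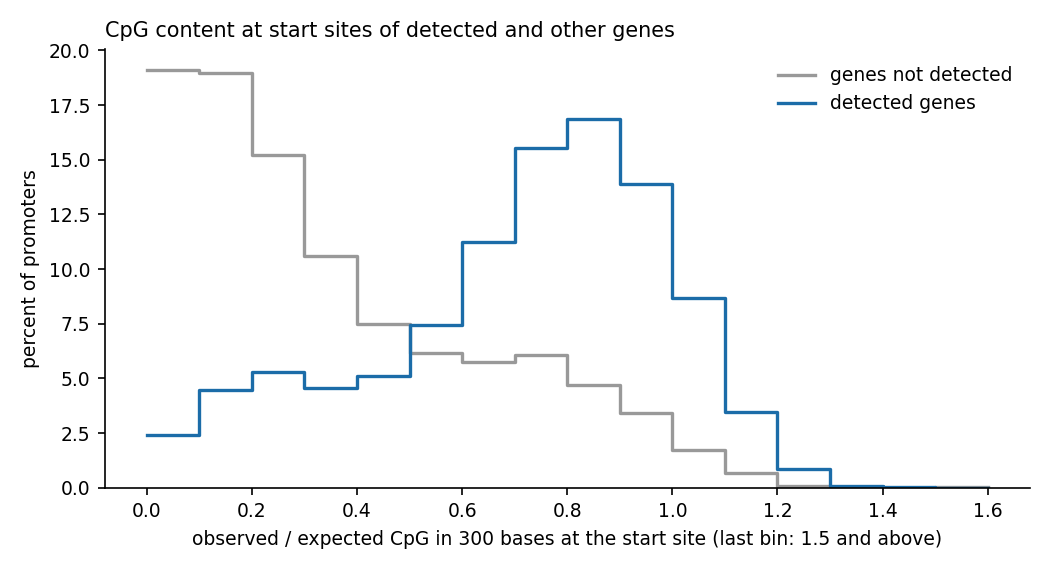
Distribution of the ratio of observed to expected CpG in the 300 bases at the start site, as the percent of promoters in steps of 0.1, for the 11097 promoters of detected genes (blue) and the 9028 promoters of genes that were not detected (grey). The blue curve peaks at 0.8 to 0.9 with 16.8% of its promoters, and the grey curve is highest below 0.2.

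The spread among the 4 libraries was smaller without library 3. The common biological coefficient of variation from edgeR, the replicate variation beyond counting error, was 0.199 over the 10911 detected genes, and 0.111 without library 3. Leaving out library 1, 2 or 4 gave 0.224, 0.237 and 0.194. The median coefficient of variation (CV) of scaled CPM was 18.2%, with 7.86% and 32.7% at the 10th and 90th percentiles, and without library 3 the median was 10.0%. Libraries 1 and 2 were most alike (Pearson r = 0.994 over log2 CPM of detected genes, given as a description) and libraries 3 and 4 least (0.952). No pair matched within counting noise.

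The deviations of libraries 1, 3 and 4 went with base composition and gene length. In the tenth of genes with the lowest GC content, library 3 was higher than the mean of the other 3 by 0.56 in the median log2 ratio, and in the tenth with the highest GC content it was at -0.52. Library 4 went the other way, from -0.56 to 0.33. Across 10908 genes the Spearman correlation of the deviation with GC content was 0.41 in library 1, -0.72 in library 3 and 0.78 in library 4, and near 0 in library 2. The deviation of each library is taken against a mean that holds the others, so these values are not independent. With exon length the correlation was -0.46, -0.15, 0.48 and -0.32 in libraries 1 to 4, and GC content and length were themselves related (rho = -0.29). With the trend on GC content removed, a setting chosen after the data were seen, the common biological coefficient of variation was 0.131 in place of 0.199, and with the trend on length removed it was 0.174.

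**Figure D5:**
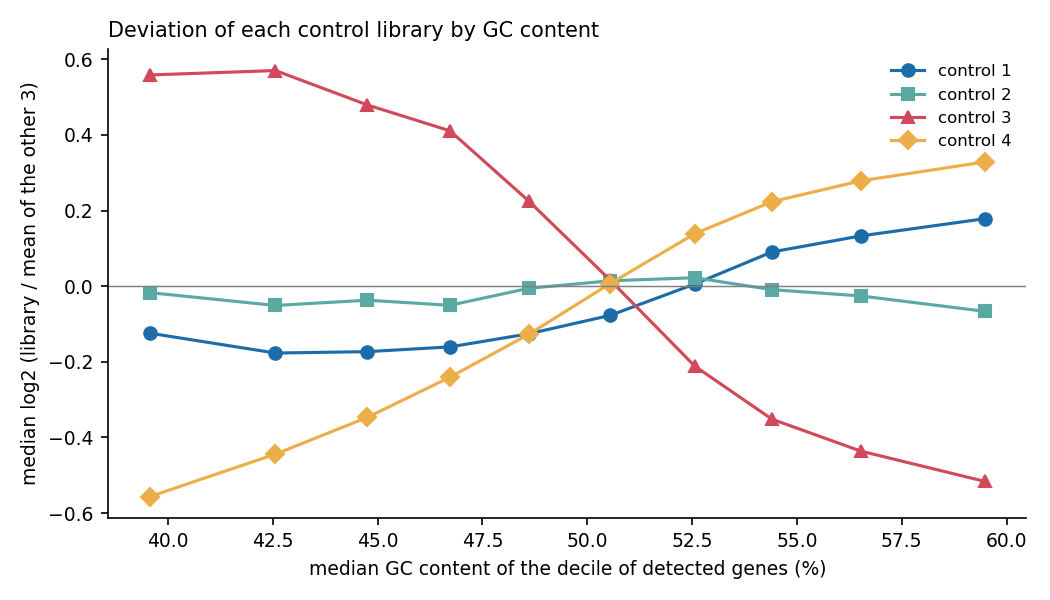
Median log2 ratio of each control library to the mean of the other 3, for 10 groups of about 1091 detected genes ordered by the GC content of their longest transcript. Library 3 falls from 0.56 to -0.52 and library 4 rises from -0.56 to 0.33, while library 1 rises from -0.12 to 0.18 and library 2 stays near 0.

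The genes of widest spread were highest in library 3, and those of narrowest spread lay at or above the median GC content. The 8 detected genes with the highest CV among the 9012 with a scaled mean of at least 10 CPM were Casp8ap2, Ankrd12, Cep290, Slfn9, Cenpe, Wrn, Zfp518a and Knl1, with CVs of 51.9% to 62.1%. Library 3 was the highest for all 8, and their GC content was 36.7% to 43.2%. Cenpe and Knl1 encode proteins of the kinetochore, the site where chromosomes attach to the spindle. Cenpe had 20.2, 29.1, 61.8 and 21.5 CPM, and Ankrd12 had 11.7, 13.8, 35.6 and 12.2 CPM. Without library 3 the CV of Ankrd12 was 7.22% and that of Zfp518a still 41.6%.

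The 8 genes of lowest CV were Zfyve26, Smpd4, Dhx35, Gmeb2, Rsad1, Ap3m2, Cry2 and Ubap2l, at 0.861% to 1.52% and with a GC content of 49.8% to 55.6%. Smpd4, a sphingomyelin phosphodiesterase gene, had 46.7, 47.6, 48.9 and 47.2 CPM, and Cry2, a repressor of the circadian clock, had 20.7, 21, 22 and 21.2 CPM. Counting error alone gives CVs of 1.68% to 5.71% at the depth of these 8 genes, above each observed value, so they are the low end of 9012 values and not a measure of steadiness.

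The rule has a threshold, and genes next to it hardly differed. Just inside it, Gm29666 had 1.06, 1.00, 1.64 and 0.561 CPM and Kcnk4 1.22, 1.00, 0.946 and 1.54 CPM. Just outside, Tmem184a had 0.979, 1.37, 1.07 and 0.981 CPM, Tmie 0.897, 1.32, 1.51 and 0.981 CPM, and Zfp882 0.653, 1.16, 1.45 and 0.981 CPM. These 5 had 66 to 74 counts over the 4 libraries. The detected genes held 99.9% of all counts. With library 3 left out and 1 CPM required in each of the other 3, 10778 genes were detected.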

How the data were processed

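Gene counts of the 4 control libraries were used, and the 4 overexpression libraries were left out. The authors deposited raw whole-number counts per gene symbol, without scaling. The submitters' processing notes list FastQC, STAR, HTSeq and mm10. Tool versions, the annotation used and any strand setting are not given in the sources at hand. RNA was isolated with Trizol and libraries were made with an NEBNext Ultra kit, per the labels' protocols. Groups and replicate numbers came from the sample titles.

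CPM used library totals. For TPM and GC content, GENCODE M21 (GRCm38) supplied 21962 of 21983 symbols, 36 of them through RefSeq synonyms, and lengths were those of merged exons. Promoters came from RefSeq (GRCm38.p6), and for the 5 printed ones the end of the window was checked against GENCODE transcripts, which it matched in the sense direction. Spread was measured on trimmed-mean scaled counts with edgeR 4.0.16 in R 4.3.3, by an intercept-only fit tested on simulated data. There is 1 group, so no test of a difference between groups was made. Library totals of 12256376 to 18965662 counts set the precision, and the floor of 3 counts covers counting error only.

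The genes and 20 lists were chosen with earlier results of these data known. Named genes were the 20 highest by TPM, the 5 markers, up to 6 detected and 6 genes at 0 counts per list, all genes of the enzyme comparisons, the 8 of highest and of lowest CV, and 3 on each side of the threshold. A further 66 were added after their values were seen. Certain genes within this rule are not reported here. Alternatives were other scalings (DESeq2 1.42.0 size factors among them), thresholds, lengths and leaving out each library. Removal of the trend on GC content (lowess, span 0.3) was added after the data were seen.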

Additional observations from a re-analysis of the deposited data

Results flagged for a closer look

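Of 172 named detected genes, 14 had 1 library far from the other 3, by Dixon's test for 4 values at the 95% level. Chance alone flags about 1 in 20 groups, a rate that cannot be applied to genes chosen for their spread or with their values in view. Of the 14, 3 (Ankrd12, Slfn9 and Wrn) were named for their high CV and 6 (Abcc2, Brca1, Cenpf, Egfr, Mki67 and mt-Nd3) were added after their values were seen, so for these 9 the test shows nothing and only the values are given. Of the other 121 named genes, 5 were picked out, about as many as a rate of 1 in 20 would flag. The share over all detected genes is not given here, so these 5 are listed for their values only. Library 3 was the high one for 11 of the 14, and library 4 was the low one for 3.

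Among growth and cell division genes, library 3 had 263 CPM of Mki67 against 108 to 123 in the others. It had 83.1 CPM of Cenpf against 31.7 to 37.1, and 92.0 CPM of the DNA repair gene Brca1 against 34.7 to 40.1. For the receptor genes, Met had 277 CPM there against 152 to 156, and Egfr 269 against 188 to 201. Abcc2 had 251 CPM against 152 to 160. Apob had 218 CPM against 106 to 118, and the imprinted gene Peg3 333 against 204 to 221. The genes named for their high CV were Ankrd12 with 35.6 CPM against 11.7 to 13.8, Slfn9 with 30.8 against 10.5 to 13.3, and the helicase gene Wrn with 30.4 against 10.7 to 13.9.

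Library 4 was low for Spp1, at 589 CPM against 975 to 1043, for Pcna, at 122 against 167 to 176, and for mt-Nd3, at 0.491 against 1.45 to 1.63. The level of mt-Nd3 is uncertain at 79 counts in all. The GC trends of libraries 3 and 4 stand beside these values, and their part in them was not tested.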

How the results depend on the processing

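The number of detected genes stayed between 10456 and 11384 under the 10 alternatives run for it, against 10911, and each lay within 1.5 times the main number. Leaving out each library in turn gave 10763 to 10808. With a minimum of 2 CPM, the single detected erythroid marker (Klf1) was lost, leaving 0. The common biological coefficient of variation was 0.199. It ranged from 0.111 to 0.237 when each library was left out, and the low end was without library 3. It was 0.131 after the trend on GC content had been removed, an alternative chosen after the data were seen, and 0.174 after the trend on length had been removed. Mean CPM of the 172 named detected genes moved by less than 1 SD under trimmed-mean scaling. With each library left out in turn, its ratio to the main value was 0.682 to 1.20. A mean of 4 values cannot move by 1 SD when 1 value is left out, so only the ratios count there. The longest transcript as length moved 97 of their TPM values beyond 1 SD and 9 beyond 1.5-fold. No paired analysis was possible because only 1 group was described and no groups were compared. Depth limits genes near 1 CPM most, where a library gives 12 to 19 counts.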
